A study of Danio rerio with 12 samples.

Results

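The genes described here encode the standard proteasome of the zebrafish: the alpha and beta subunits of its core particle and the ATPase and non-ATPase subunits of its regulatory particle. They were taken as the named genes on the array whose symbol starts with psma, psmb, psmc or psmd followed by a digit, with psmb8 to psmb13 left out, and each gene was represented by its brightest probe over the 12 arrays. The rule found 39 of the 10914 named genes. One of them, psmc3ip, carries the letters but encodes a cofactor of meiotic recombination and not a subunit, so it was counted apart, which left 38 genes. These are 10 genes of the alpha ring, 6 of the beta ring, 7 ATPases and 15 non-ATPase genes. The last include psmd5, psmd9 and psmd10, which carry psmd names but encode chaperones of the regulatory particle. They are counted with the subunit genes below. No probe was matched to psmb5 or psmd12.

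The proteasome is the barrel-shaped protease that degrades proteins marked with ubiquitin. Alpha rings close the ends of the core particle and gate the entry, beta rings hold the cutting sites, and the regulatory particle at the end of the core binds the ubiquitin chain, removes it and threads the unfolded protein in with its ring of ATPases. In vertebrates the standard catalytic beta subunits can be replaced by inducible relatives, which together form the immunoproteasome.

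The study asked which transcripts depend on the glucocorticoid receptor (GR), the transcription factor through which cortisol acts, in early development. One-cell zebrafish embryos were injected with 4.4 ng, in 1 nl, of either a morpholino (MO) against the start of translation of the GR transcript or a mispair oligonucleotide (MP) as the control, and pools of 25 whole embryos by the labels were collected at 24 or 36 hours post fertilization (hpf), with 3 pools from separate breedings in each of the 4 groups. Both groups carried an oligonucleotide, and no uninjected embryos were measured. The target of the morpholino places the GR start codon, whose complement is in capitals here, inside the bound stretch:
active morpholino: ctccagtcctccttgatcCATtttg
The labels print these same 25 letters for the mispair control and the methods print others of another length, so which letters the control carried could not be settled.

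Each pool was hybridized to 1 one-color Agilent array. Values are log2 normalized expression, the log2 of the background-subtracted intensity of a probe over the median of a common set of 19114 probes on the same array, so a difference of 1 is a 2-fold difference and levels of different probes cannot be set against each other. The share of probes well above background was 80.4 to 82.5% on the 24 hpf arrays, 66.0 to 70.7% on the MO arrays at 36 hpf and 72.9 to 80.5% on the MP arrays at 36 hpf. The scaling probes of MO replicate 2 at 36 hpf had a median intensity of 341, against 755 to 1749 on the other 36 hpf arrays and 1181 to 1615 at 24 hpf. Counts and medians of the subunit genes that rest on this array are given with and without it. The files labelled MP replicates 2 and 3 at 24 hpf are exchanged relative to the authors' processed table, which leaves every comparison of groups as it is. The GR gene nr3c1 ranged from -0.78 to -0.38 in MO and from -0.58 to -0.38 in MP at 24 hpf, and from -0.29 to -0.09 and -0.29 to -0.20 at 36 hpf, but a morpholino against translation need not lower its transcript, so this gives no check of the labels. Every difference below is that of the arrays labelled MO over those labelled MP. The study's own gene lists run the other way at both times, with most genes it lists as lower after the knockdown higher on the arrays labelled MO and the reverse. Whether the labels or the ratios were exchanged cannot be told from the arrays, so every direction between MO and MP rests on the labels. The study also reports qPCR of selected genes on further injected pools at the later time. There every measured gene changed in the direction of the study's own array ratios. As reported, the qPCR thus goes with the study's ratios, which run opposite to the labels for most genes. No separate measurement backs the direction by the labels. Defining markers of muscle (4 of 4), neurons (4 of 4) and lens (3 of 3) were well above background on all 12 arrays, and of 2 matched markers of the yolk syncytial layer 1 was. In whole embryos a smaller number of cells of a type and less RNA per cell cannot be told apart.

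All 38 subunit genes were well above background on all 12 arrays, so none of them entered a comparison through 1 group alone. Arrays were compared with limma, with Benjamini-Hochberg adjustment over all named genes tested, and an adjusted p under 0.05 counts as changed.

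At 24 hpf, 12 of the 38 subunit genes differed between MO and MP, against 48.3% of the 10350 genes tested. Higher in MO were 5 genes (24.3% of all genes), led by psma6l and psma6b, copies of 1 alpha subunit gene, and lower were 7 (24% of all genes), led by psmd8 of the lid of the regulatory particle and the ATPase psmc3. Most of the differences were small: the median size of a difference, without its sign, was 0.16 on the log2 scale over the subunit genes and 0.36 over all genes tested. A difference beyond 0.5 was seen in 4 of the 38, against 36.6% of all genes. The median with its sign was -0.061 for the subunit genes and 0.0071 for all genes. The MO and MP arrays did not overlap for 17 of the 38, against 59.8% of all genes, and 6 of them were higher in MO (29.7% of all genes) and 11 lower (30% of all genes).

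**Figure D1:**
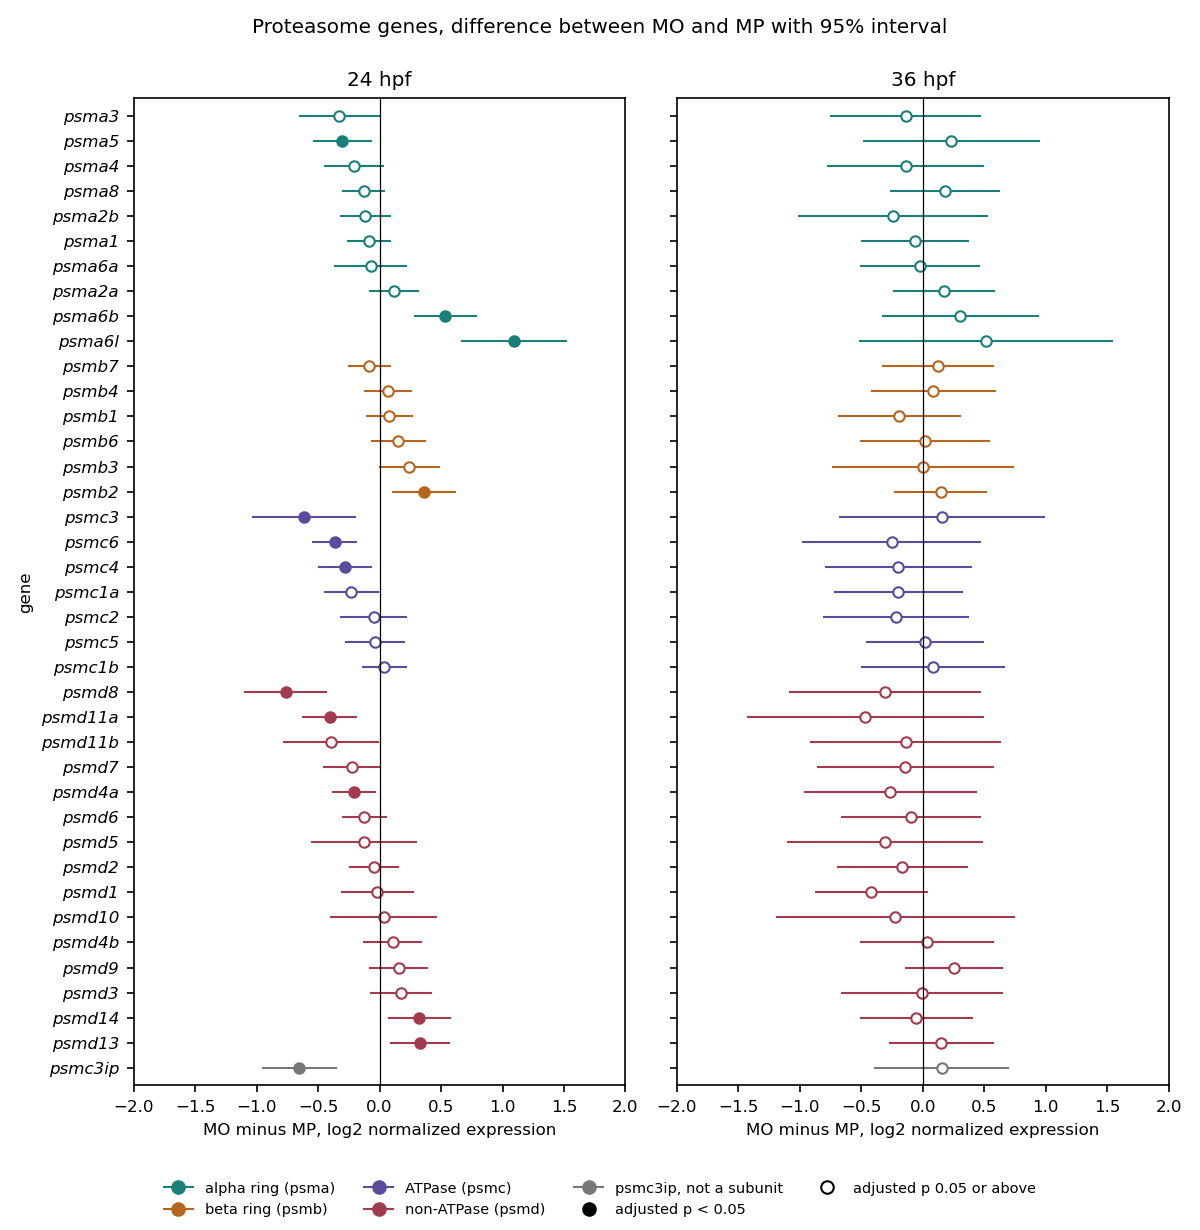
Difference in log2 normalized expression between MO and MP (x axis, log2 units) for each proteasome gene (y axis) at 24 hpf and 36 hpf, with bars for limma's 95% interval, colors for the class and filled points for an adjusted p under 0.05. At 24 hpf 12 of the 38 subunit points are filled, with psma6l at 1.09 and psmd8 at -0.76 as the extremes, and at 36 hpf every subunit interval contains 0.

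Of the 10 alpha ring genes, 2 were higher (24.3% of all genes), 1 was lower (24% of all genes) and 7 were not called at 24 hpf, with a median difference of -0.10. The largest difference of any subunit gene was that of psma6l, which by its name is a further copy of the psma6 gene. Its log2 normalized expression was -2.97, -2.71 and -3.32 on the MO arrays and -4.18, -3.92 and -4.17 on the MP arrays. Every MO array was above every MP array, a rise of 1.09 (SE 0.19) or 2.13-fold with an adjusted p of 0.00144. The call of psma6l held under all 23 alternatives of processing and arrays that were run, with a rise of 0.67 to 1.25. A second copy, psma6b, had 1.23, 0.99 and 0.98 in MO and 0.67, 0.43 and 0.48 in MP, again without overlap. It rose by 0.53 (SE 0.11, adjusted p = 0.00391), while the copy psma6a differed by -0.073 (adjusted p = 0.656). These 3 probes are for genes of 1 family, and whether the probe of 1 copy also binds the transcript of another was not tested.

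The alpha ring gene that fell was psma5, by 0.30 (SE 0.10, adjusted p = 0.0352), and all MO arrays were below all MP arrays. Its call was lost when any of the 3 MO arrays was left out. At the low end of the class, psma3 had 2.73, 2.52 and 2.44 in MO and 2.70, 3.20 and 2.77 in MP, and the arrays overlapped because of 1 MO and 1 MP array. Its difference was -0.33 (SE 0.14, adjusted p = 0.0883), the lowest in the alpha ring without passing the threshold. The remaining differences were -0.21 for psma4, -0.13 for psma8, -0.115 for psma2b, -0.086 for psma1 and 0.12 for psma2a, all above the threshold in adjusted p. The second probe of psma2a gave 0.315 with an adjusted p of 0.0433, so for this gene the call depends on the probe. The reference lists psma8 also as psma7.

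The beta ring genes lay at or above 0 more often than below it, with 5 of 6 positive differences and a median of 0.12, against 0.0071 over all genes. Only psmb2 changed, where 48.3% of all genes did. The median of the class relative to each gene's own mean over the 12 arrays was 0.040 to 0.29 on the MO arrays and -0.036 to 0.033 on the MP arrays. The groups were thus barely separate, at 0.040 against 0.033. Of all single genes 29.7% had every MO array above every MP array. The psmb2 subunit of the ring has no cutting site of its own. Its values were 5.10, 4.69 and 4.84 in MO and 4.61, 4.41 and 4.52 in MP. The MO arrays were all higher, by 0.36 (SE 0.11, adjusted p = 0.026), and the call was lost without MO replicate 1 or 3 or without MP replicate 2 or 3.

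Neither of the catalytic subunit genes with a probe changed at 24 hpf. The gene of the caspase-like site, psmb6, had 4.23, 3.96 and 3.98 in MO and 3.92, 3.96 and 3.83 in MP. The gene of the trypsin-like site, psmb7, had 4.66, 4.56 and 4.62 in MO and 4.76, 4.66 and 4.69 in MP. For both genes the MO and MP arrays overlapped. The difference was 0.15 for psmb6 (SE 0.095, adjusted p = 0.215, 95% interval -0.064 to 0.37) and -0.084 for psmb7 (SE 0.074, adjusted p = 0.376, interval -0.25 to 0.084). Both intervals leave out a 2-fold change in either direction. The other beta ring genes differed by 0.24 (psmb3, adjusted p = 0.0838), 0.078 (psmb1) and 0.071 (psmb4).

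The ATPases, which form the ring that unfolds the substrate, included no gene that rose (24.3% of all genes) and 3 of 7 that fell (24% of all genes) at 24 hpf. Their median difference was -0.23, against 0.0071 over all genes. Of the 7 differences 6 were negative, and the share of all genes that were negative was not counted. The class median relative to each gene's own mean lay between -0.16 and 0.056 on the MO arrays, below the 0.14 to 0.20 of the MP arrays. Of all single genes 30% had every MO array below every MP array. The lowest was psmc3, with 2.89, 2.67 and 2.87 in MO and 3.15, 3.90 and 3.24 in MP. All MO arrays were below all MP arrays, although MP replicate 2 stood well above the other MP arrays. The fall was 0.62 (SE 0.18, 1.53-fold, adjusted p = 0.0212), and it did not pass without MO replicate 2 (-0.55, adjusted p = 0.0798).

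More even between arrays was psmc6, with 4.39, 4.38 and 4.52 in MO and 4.81, 4.84 and 4.73 in MP. It fell by 0.37 (SE 0.078, 1.29-fold, adjusted p = 0.00455), and leaving out any 1 array kept the call. The third ATPase to fall was psmc4, by 0.28 (SE 0.092, adjusted p = 0.0329), a call kept in 2 of the 6 fits that leave out an array. Highest in the class was psmc1b, whose arrays overlapped at 4.36, 4.26 and 4.44 in MO and 4.36, 4.28 and 4.30 in MP, a difference of 0.040 (SE 0.078, adjusted p = 0.699). Its copy psmc1a differed by -0.23 (adjusted p = 0.0724), psmc2 by -0.049 and psmc5 by -0.039.

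The gene psmc3ip, which the letters of the rule include, fell by 0.65 (SE 0.13, adjusted p = 0.00336) with all MO arrays below all MP arrays. It is not counted among the ATPases.

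Among the 15 non-ATPase genes 2 rose (24.3% of all genes), 3 fell (24% of all genes) and 10 were not called at 24 hpf, with a median difference of -0.043. The gene that fell most was psmd8, a lid subunit that in yeast is the last to join the lid. Its values were 1.31, 1.29 and 1.40 in MO and 1.90, 2.45 and 1.94 in MP. The MO arrays lay close together and below every MP array, a fall of 0.76 (SE 0.14, 1.70-fold, adjusted p = 0.00254). The second probe of psmd8 also fell, by 0.45 (SE 0.14, adjusted p = 0.0246). Another lid subunit gene, psmd11a, had 2.20, 2.33 and 2.36 in MO and 2.85, 2.64 and 2.62 in MP. It fell by 0.41 (SE 0.094, 1.32-fold, adjusted p = 0.00721), with no overlap. Its copy psmd11b was lower on all MO arrays too, by 0.40, with an adjusted p of 0.0794.

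The ubiquitin receptor gene psmd4a fell by 0.21 (SE 0.076, adjusted p = 0.0483), close to the threshold. Only 1 of the 6 fits that leave out an array kept the call. The second probe of psmd4a gave -0.17 (adjusted p = 0.241), so the call of this gene depends on the probe. Its copy psmd4b differed by 0.11 (adjusted p = 0.425). The genes that rose were psmd13 and psmd14, both of the lid. For psmd13 the values were 4.66, 4.65 and 4.90 in MO and 4.51, 4.25 and 4.48 in MP. All MO arrays were above the MP arrays, by 0.33 (SE 0.10, 1.25-fold, adjusted p = 0.0292). The gene of the enzyme that cuts the ubiquitin chain off the substrate, psmd14, rose by 0.32 (SE 0.11, adjusted p = 0.0375). The metalloprotease-like partner of that enzyme in the lid, psmd7, was not called at -0.23 (adjusted p = 0.0873), although its second probe fell by 0.40 (adjusted p = 0.0104).

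The large scaffold subunits psmd1 and psmd2 differed by -0.017 and -0.043 at 24 hpf, and the lid subunits psmd3 and psmd6 by 0.17 and -0.12. Of the chaperones of the regulatory particle that carry psmd names, psmd5 differed by -0.12, psmd10 by 0.034 and psmd9 by 0.15. None of these 7 genes passed the threshold. For psmd9 the values were 2.24, 2.15 and 2.16 in MO and 2.02, 2.20 and 1.87 in MP, which overlap through MP replicate 2.

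The calls at 24 hpf were not equally firm. In the 6 fits that each left out 1 array the number of changed subunit genes was 7 to 11, against 40.2 to 48.8% of all genes, with 7 when MO replicate 1 or MO replicate 3 was left out. Called in all 6 of these fits were psma6l, psma6b, psmc6, psmd11a and psmd8. Over all 23 alternatives the calls of psma6b, psmc6 and psmd11a held in 22, psmd8 in 21, psmc3 in 19 and psma5 in 16. Least firm were psmb2 with 14, psmc4 and psmd13 with 13, psmd14 with 10 and psmd4a with 9. Scaling to the positive control spots, and likewise normexp background correction, gave 2 rises and 6 falls in place of 5 and 7. Of all genes 38.3% and 45.2% were changed in these fits. No subunit gene changed sign with a call in any of the scalings. The positive control spots had a median intensity of 1.95 to 5.16 per array, against 341 to 1749 for the scaling probes. That scale thus rests on very dim spots, here and below. The median difference was 0.036 without MO replicate 2, with 21 of the 38 positive, so the sign of the median rests on that array.

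**Figure D2:**
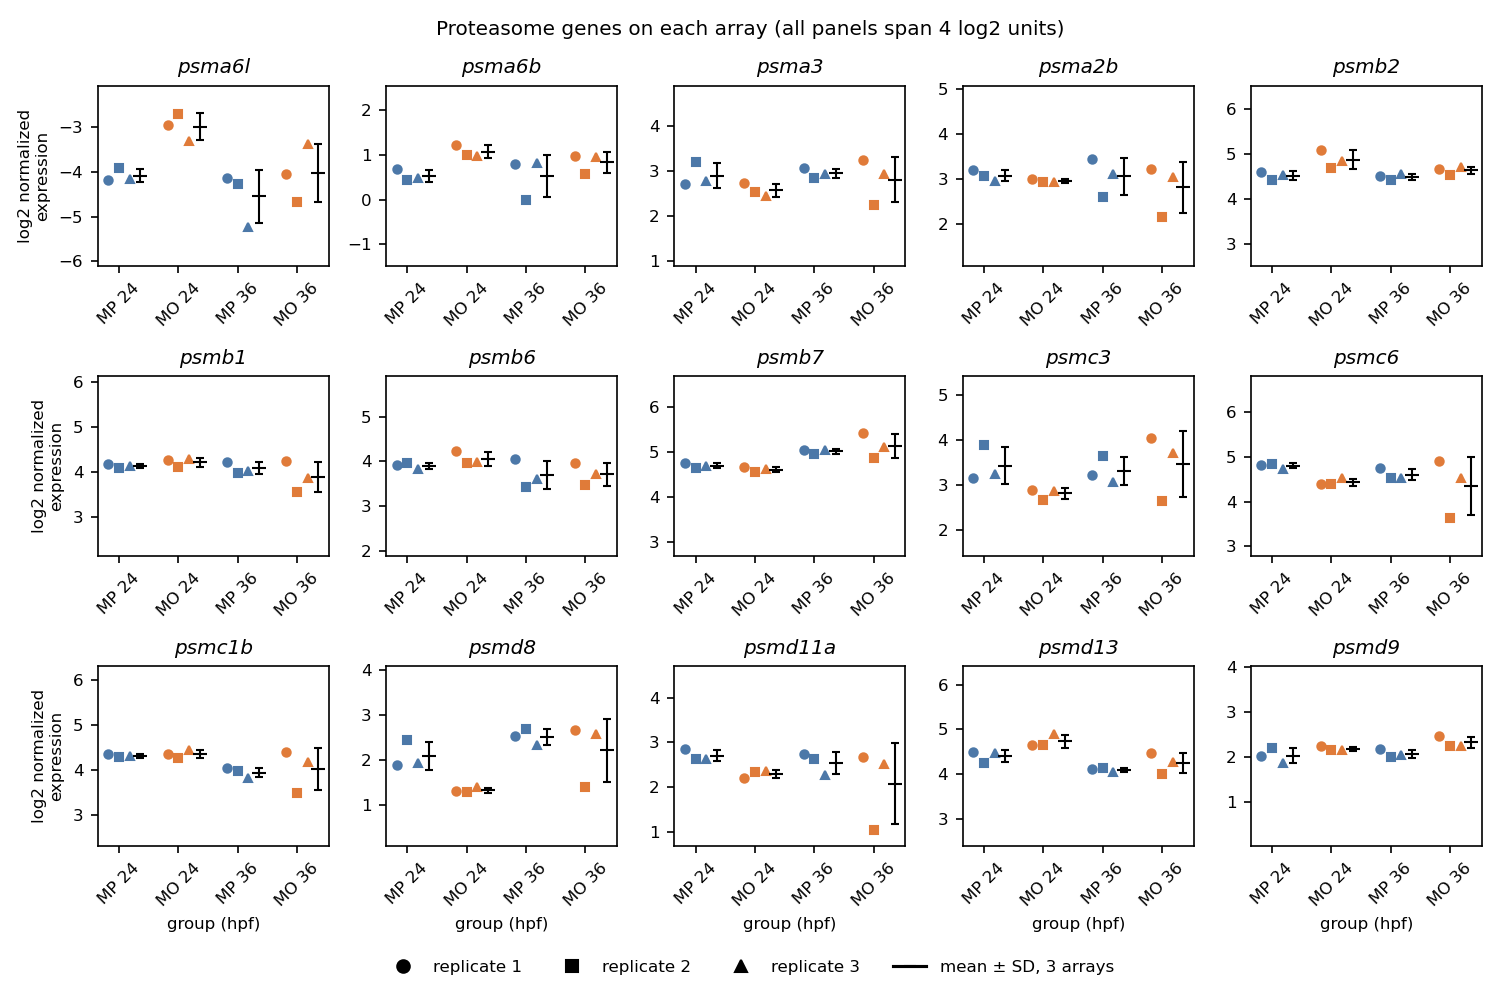
Log2 normalized expression (y axis) of 15 proteasome genes on each array, by group (x axis, hpf), with the marker shape for the replicate and the bar for the mean ± SD of 3 arrays. All panels span the same range, the MO and MP points separate at 24 hpf for psma6l and psmd8, and MO replicate 2 at 36 hpf is the lowest 36 hpf point for psmc6, psmd8 and psmd11a.

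At 36 hpf none of the 38 subunit genes differed between MO and MP by limma, against 6.37% of the 9887 genes tested. The count was also 0 at an unadjusted p under 0.05, against 21.3% of all genes. It was 0 too by the methods' t-test after adjustment, as run here, where 0.0202% of all genes passed on log2 and 0.0405% on linear values. This run of the test could thus call hardly any gene. The study itself reports many more changed genes at 36 hpf, and fewer at 24 hpf, than this run gave. The reason was not tested. The differences ran from -0.47 (psmd11a) to 0.51 (psma6l), with a median of -0.058 against 0.032 over all genes. The error was larger than at 24 hpf: the median SE of the subunit genes was 0.25, against 0.10. All 38 intervals contained 0, and 32 of them lay within a 2-fold change in either direction, so larger changes of the other 6 genes could not be left out by these arrays. The MO and MP arrays were separate for 2 genes only, against 29.3% of all genes. In psmd9 the MO arrays were above (14.1% of all genes) and in psmd1 below (15.2% of all genes).

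In the alpha ring at 36 hpf psma6l again had the highest difference. Its values were -4.05, -4.67 and -3.39 in MO and -4.15, -4.27 and -5.23 in MP, and the groups overlapped. The difference was 0.51 (SE 0.44, adjusted p = 0.547, 95% interval -0.51 to 1.54). For psma2b the values were 3.23, 2.16 and 3.04 in MO and 3.45, 2.61 and 3.11 in MP. Its difference of -0.24 (adjusted p = 0.721) was the lowest in the alpha ring. At 36 hpf psma3 had 3.24, 2.25 and 2.92 in MO and 3.05, 2.85 and 2.92 in MP, a difference of -0.14. The others were 0.30 for psma6b, 0.23 for psma5, 0.18 for psma8, 0.17 for psma2a, -0.023 for psma6a, -0.060 for psma1 and -0.14 for psma4.

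In the beta ring at 36 hpf the differences ran from -0.19 to 0.14. The highest was psmb2, with 4.66, 4.54 and 4.70 in MO and 4.50, 4.42 and 4.54 in MP, a difference of 0.14 (SE 0.16, adjusted p = 0.65). The lowest was psmb1, a ring subunit without a cutting site, with 4.23, 3.56 and 3.86 in MO and 4.23, 3.98 and 4.02 in MP, a difference of -0.19 (SE 0.21, adjusted p = 0.652). Both genes had overlapping groups. At 24 hpf psmb1 had 4.26, 4.10 and 4.27 in MO and 4.18, 4.09 and 4.13 in MP, a difference of 0.078.

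The catalytic genes were also within their spread at 36 hpf. For psmb6 the values were 3.97, 3.47 and 3.71 in MO and 4.05, 3.44 and 3.61 in MP, a difference of 0.016 (95% interval -0.50 to 0.53). For psmb7 they were 5.43, 4.88 and 5.13 in MO and 5.05, 4.95 and 5.05 in MP, a difference of 0.12 (interval -0.33 to 0.57). Both intervals again leave out a 2-fold change. The genes psmb3 and psmb4 differed by 0.0004 and 0.084.

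In the ATPase class at 36 hpf the highest gene was psmc3 and the lowest psmc6, both of which had fallen at 24 hpf. For psmc3 the values were 4.06, 2.65 and 3.71 in MO and 3.23, 3.66 and 3.06 in MP, a difference of 0.16 (SE 0.36, adjusted p = 0.851). For psmc6 they were 4.90, 3.63 and 4.51 in MO and 4.75, 4.52 and 4.53 in MP, a difference of -0.25 (SE 0.31, adjusted p = 0.688). In both genes the MO arrays ran from above every MP array to below every MP array. For psmc1b the values were 4.39, 3.49 and 4.17 in MO and 4.03, 3.96 and 3.82 in MP, a difference of 0.079. The differences of psmc1a, psmc2, psmc4 and psmc5 were -0.20, -0.22, -0.20 and 0.018.

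Of the non-ATPase genes 12 of 15 were below 0 at 36 hpf, with a median of -0.14, against 0.032 over all genes. For psmd11a the values were 2.69, 1.04 and 2.52 in MO and 2.75, 2.63 and 2.27 in MP, so the low mean came from MO replicate 2. Its difference was -0.47 (SE 0.41, adjusted p = 0.557). In psmd8 the same array was low, with 2.67, 1.41 and 2.58 in MO and 2.54, 2.69 and 2.34 in MP, a difference of -0.31 (SE 0.335, adjusted p = 0.641). The highest was the chaperone gene psmd9, with 2.47, 2.26 and 2.25 in MO and 2.17, 2.01 and 2.04 in MP. Its MO arrays were all above its MP arrays, by 0.25 (SE 0.17, adjusted p = 0.43). The gene psmd1 had the lowest adjusted p of all subunit genes at 36 hpf, with MO arrays all below the MP arrays and a difference of -0.42 (SE 0.20, adjusted p = 0.272), and its second probe gave -0.15.

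For psmd13 the 36 hpf values were 4.47, 4.01 and 4.27 in MO and 4.11, 4.14 and 4.06 in MP, a difference of 0.15. The other non-ATPase differences were -0.31 for psmd5, -0.27 for psmd4a, -0.23 for psmd10, -0.17 for psmd2, -0.14 for psmd7, -0.14 for psmd11b and -0.095 for psmd6. Close to 0 were psmd14 at -0.055, psmd3 at -0.0082 and psmd4b at 0.034. The gene psmc3ip differed by 0.155 (adjusted p = 0.755). Of the 38 genes 29 had the same sign at both times and 23 had a smaller difference at 36 hpf. Of the 12 that changed at 24 hpf 9 kept their sign and 10 had a smaller difference at 36 hpf. These 12 were picked by their 24 hpf values and the same counts over all genes were not made, so the counts show no change with time. The signs at 36 hpf also depend on MO replicate 2, as given below.

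At 36 hpf 1 MO array lay apart from the others. For each array the median was taken over the 38 genes of the value relative to the gene's own mean over the 12 arrays. This median was -0.56 on MO replicate 2, and 0.25 and 0.074 on MO replicates 1 and 3. On the MP arrays at 36 hpf it lay between -0.11 and 0.036, and on the 24 hpf arrays between -0.047 and 0.12. Only 3 of the 38 genes were above their own mean on MO replicate 2. The same median over 9133 genes well above background on all arrays was -0.037 on that array. How many of all genes were above their own mean there was not counted. All 4 classes were low on MO replicate 2, at -0.46 for the alpha ring, -0.40 for the beta ring, -0.67 for the ATPases and -0.56 for the non-ATPases. This is the array with the lowest intensity of the series, and the part of that intensity in the low values was not tested.

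**Figure D3:**
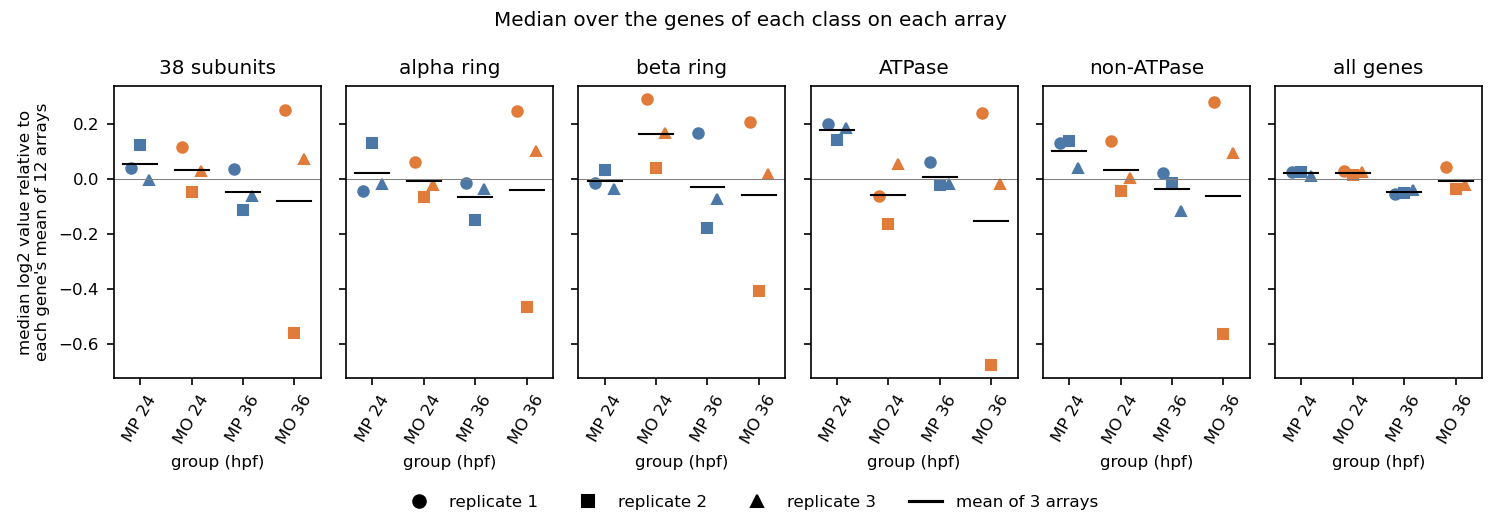
Median log2 value relative to each gene's own mean over the 12 arrays (y axis) on each array, by group (x axis, hpf), for the 38 subunit genes, for each class and for all genes well above background on every array, with the marker shape for the replicate and the line for the mean of 3 arrays. MO replicate 2 at 36 hpf lies at -0.56 for the subunit genes and at -0.037 for all genes.

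Without MO replicate 2 the median difference between MO and MP at 36 hpf was 0.16, against 0.058 over all genes. In that fit 34 of the 38 subunit genes were positive in place of 16, and the share of all genes that were positive was not counted. The number changed was 0 of 38 by limma in this fit as well, where 11.3% of all genes tested were changed. Several genes turned sign, among them psmd11a (from -0.47 to 0.052) and psmd8 (from -0.31 to 0.097). The direction of the subunit genes at 36 hpf thus differed with and without this array. Leaving out MO replicate 1 instead gave a median of -0.20.

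**Figure D4:**
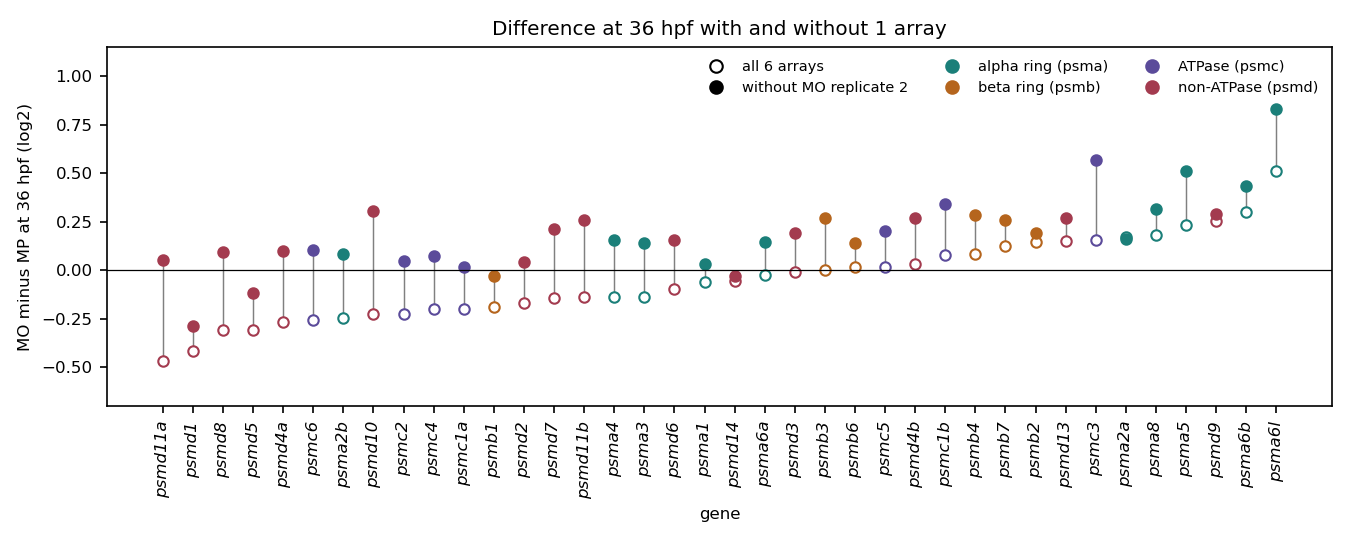
Difference between MO and MP at 36 hpf (y axis, log2 units) for each of the 38 subunit genes (x axis), with open points for all 6 arrays and filled points without MO replicate 2, colored by class. The filled points are above 0 for 34 genes and the open points for 16.

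The values at 36 hpf were also set against those at 24 hpf within MP and within MO. All 24 hpf arrays were scanned on 1 day and all 36 hpf arrays on another, so time and scan day cannot be told apart. In MP embryos 6 of the 38 subunit genes changed with time, against 30.5% of the 10299 genes tested, with a median of -0.12 against -0.062 over all genes. Of them 2 were higher at 36 hpf (14.4% of all genes) and 4 lower (16.1% of all genes). Higher at 36 hpf were the catalytic gene psmb7, by 0.32 (SE 0.10, adjusted p = 0.0449), and the scaffold gene psmd2, by 0.35 (SE 0.11, adjusted p = 0.0379). These rises did not pass under scaling to the 75th percentile (0.29 for psmb7 and 0.32 for psmd2), quantile normalization or normexp correction. Both did pass with the authors' table, by the methods' t-test and with the replicate number as a block. With the dim positive control spots as the scale the values were -0.20 and -0.17, where the median over all genes moved to -0.59.

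Lower at 36 hpf in MP were psmd3 by 0.65 (SE 0.20, adjusted p = 0.0387), psmd4a by 0.58 (SE 0.10, adjusted p = 0.00407), psma6a by 0.48 (SE 0.14, adjusted p = 0.0352) and psmc1b by 0.37 (SE 0.11, adjusted p = 0.0302). The second probe of psmd4a went the other way, a rise of 1.00 (SE 0.20, adjusted p = 0.008), so the direction of this gene with time depends on the probe. In MO this second probe rose too, by 1.20 (SE 0.23, adjusted p = 0.0249), where the brightest probe gave -0.63. With 75th percentile scaling the split was 0 higher and 6 lower, with quantile normalization 0 and 8, and with normexp 0 and 5, against 31.1%, 32.1% and 29.9% of all genes changed. The falls named above passed in these fits, except psma6a with normexp (adjusted p = 0.168). With the authors' table only psmd4a of them passed, and by the methods' t-test only psmc1b and psmd4a. The count of 6 fell to 1 without MP replicate 1 or 3 at 24 hpf (17.3% of all genes in either fit) or without MP replicate 3 at 36 hpf (27.2%).

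In MO embryos 2 subunit genes changed with time, against 11.8% of the 10210 genes tested, and both were lower at 36 hpf (5.73% of all genes lower, 6.04% higher). The deubiquitinase gene psmd14 fell by 0.72 (SE 0.15, 1.64-fold, adjusted p = 0.0296), and psmd3 fell by 0.84 (SE 0.21, 1.78-fold, adjusted p = 0.0485). The median was -0.16, against -0.076 over all genes. Without MO replicate 2 at 36 hpf 14 subunit genes changed, of which 10 rose, against 49.7% of all genes tested. The largest rises in that fit were psmd8 by 1.29, psmd11b by 1.13 and psmc3 by 1.07. The count was 0 without any 1 of the 24 hpf MO arrays, where 0.215 to 0.623% of all genes were changed, or without MO replicate 3 at 36 hpf, where 1.64% were, so the calls were lost among all genes as well. Since MO and MP at 24 hpf enter both kinds of comparison, these values share arrays with the differences between MO and MP.

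Whether the difference between MO and MP itself moved with time was tested as an interaction in 1 fit of the 12 arrays. None of the 38 subunit genes passed by limma, against 1.55% of the 10388 genes tested, and none had an unadjusted p under 0.05, against 15.2%. The smallest adjusted p was 0.447, for psmc3, whose difference was higher by 0.77 (SE 0.45) at 36 hpf than at 24 hpf. Without MO replicate 2 at 36 hpf 3 genes passed, against 15.7% of all genes: psmc3 (1.19, adjusted p = 0.0247), psmd8 (0.86, adjusted p = 0.0244) and psma8 (0.44, adjusted p = 0.0423).

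Other genes of the pathway were set beside the subunits. Of 5 inducible relatives of the standard beta subunits tested at 24 hpf 4 rose (24.3% of all genes) and 1 fell (24%). Among the 4, psmb8a entered the test through its MO arrays alone, so its rise followed from the filter and is no support. The other relative with a probe, psmb11a, was too dim to be tested. The rises of psmb13a, psmb9a and psmb12 were larger than that of any standard subunit gene. With psmb8a at the bound given below, the median difference of the 5 was at least 1.63 in the main processing. The relative psmb13a had -1.21, -1.20 and -1.93 in MO and -5.94, -6.43 and -6.04 in MP. It rose by 4.69 (SE 0.24) at 24 hpf with no overlap, and by 1.99 (SE 0.44, adjusted p = 0.0418) at 36 hpf. There 2 of 3 MP arrays were well above background, so the gene entered that test through MO alone. With normexp correction these values were 2.48 and 0.90, and with the positive control spots as the scale the 36 hpf value was 0.82. The rise of psmb12, a further relative, was 1.63 (SE 0.27, adjusted p = 0.00137) at 24 hpf, and 1.12 to 1.975 over 23 alternatives. The probe of psmb8a, which encodes the inducible form of the chymotrypsin-like site, was not well above background on any MP array. Its rise at 24 hpf is therefore given as a bound, at least 2.61-fold (1.38 on the log2 scale) in the main processing. Over 22 alternatives its fitted difference ran from 0.39 to 3.94, so the bound does not hold in all of them. For this bound an MP array entered with the dimmest signal that it measured well above background, or with the signal of the probe itself where that was brighter.

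An inducible form of psmb6 is psmb9a, which had -1.78, -1.86 and -3.30 in MO and -4.92, -4.55 and -4.78 in MP at 24 hpf. It rose by 2.44 (SE 0.37, adjusted p = 0.000748) where psmb6 differed by 0.15, and with normexp correction it rose by 1.43. The change of psmb9a exceeded that of psmb6 by 2.29 on the log2 scale at 24 hpf and by 0.99 at 36 hpf, with 3 of 3 MO arrays above all MP arrays in the ratio of the 2 genes at both times. An inducible form of psmb7 is psmb10, which went the other way: it fell by 0.55 (SE 0.14, adjusted p = 0.0119) at 24 hpf where psmb7 differed by -0.084. Which standard subunits psmb12 and psmb13a are closest to was not examined, so psmb10 need not be the only such form. The change of psmb10 relative to psmb7 was -0.46 at 24 hpf and -0.10 at 36 hpf. Over these 4 ratios the exact permutation test, two-sided, gave p = 0.1 for all but the last, the smallest it can give with 3 against 3 arrays, and 0.7 for the last, or 0.133 and 0.7 after adjustment over the 4, so the test could not reach the threshold.

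**Figure D5:**
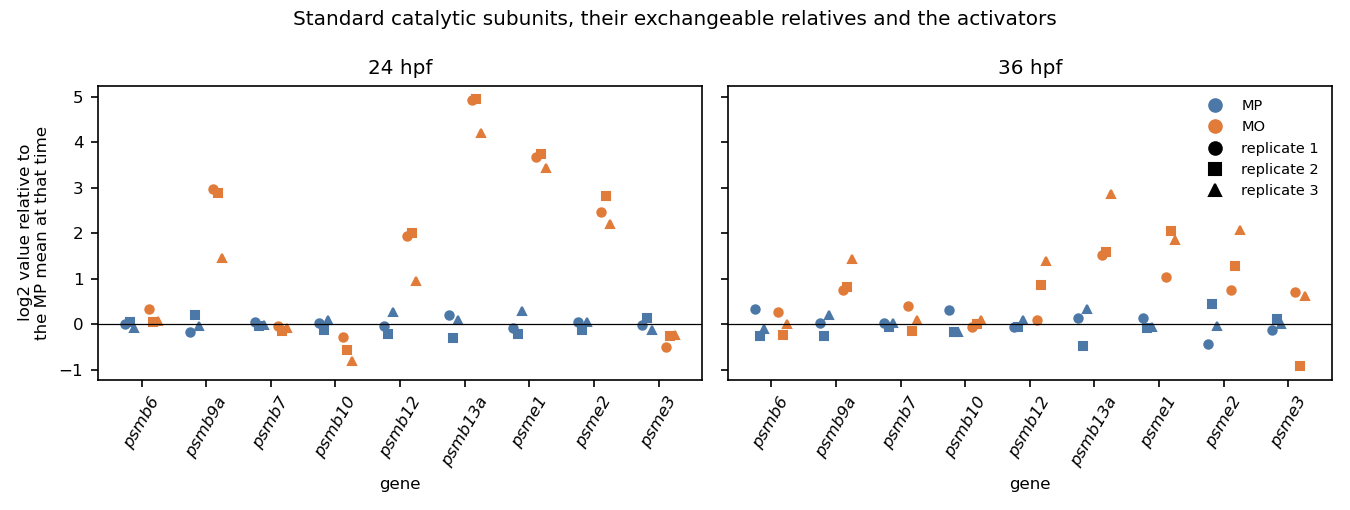
Log2 value relative to the MP mean at that time (y axis) for the standard catalytic genes psmb6 and psmb7, their inducible relatives and the activator genes (x axis) on each array at 24 and 36 hpf, with color for the group and shape for the replicate. At 24 hpf the MO points of psmb13a and psme1 lie more than 3 log2 units above MP, while those of psmb6 and psmb7 overlap the MP points.

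Of 4 genes tested for the activators, which cap the core in place of the regulatory particle, and their inhibitor 2 rose (24.3% of all genes) and 1 fell (24%) at 24 hpf. The paired subunits of the interferon-inducible activator, psme1 and psme2, rose by 3.61 (SE 0.16) and 2.50 (SE 0.16) at 24 hpf. At 36 hpf psme1 was also higher, by 1.65 (SE 0.32, adjusted p = 0.029). The study lists psme1 as lower after the knockdown at 24 hpf, opposite to the labels used here. The gene of the nuclear activator, psme3, fell by 0.33 (SE 0.10, adjusted p = 0.0286) at 24 hpf. Its call held in 15 of 23 alternatives and was lost with its dimmest probe. The inhibitor gene psmf1 differed by 0.21 (adjusted p = 0.0852). The rise of psme1 was 2.995 with normexp at 24 hpf and 0.47 with the positive control spots at 36 hpf. The call at 36 hpf held in 10 of 20 alternatives for psmb13a and 12 of 21 for psme1. Both were lost without MO replicate 3, without any 1 of the MP arrays, with a block for the replicate number, with one for the slide, with the positive control spots and by the methods' t-test, and that of psmb13a also with normexp.

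Of 9 genes tested at 24 hpf for proteins that assemble the proteasome or attach to it, none rose and 2 fell, against 48.3% of all genes changed. The assembly chaperone gene psmg3 fell by 0.42 (SE 0.090, adjusted p = 0.00509). The attached thioredoxin-like gene txnl1 fell by 0.29 (SE 0.088, adjusted p = 0.0249), a call that held in 16 of 23 alternatives. The gene of the small lid subunit, sem1, differed by 0.22 (adjusted p = 0.129) and ecpas, whose product ties the regulatory particle to the core, by -0.29 (adjusted p = 0.354). At 36 hpf 0 of the 9 passed by limma, against 6.37% of all genes, and 0 had an unadjusted p under 0.05, against 21.3%.

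Of 10 regulators tested 4 rose (24.3% of all genes) and 3 fell (24%) at 24 hpf. The gene nfe2l1a is a copy of the gene of the factor that in mammals raises proteasome transcription when proteasome activity is low. It rose by 1.73 (SE 0.37, adjusted p = 0.00451). Only 2 of its 3 MP arrays were well above background, so nfe2l1a entered the test through MO alone. With normexp correction nfe2l1a rose by 0.33, and its call was lost in the single fit of 12 arrays and by the methods' t-test. Its relative nfe2l2a fell by 0.41 (SE 0.092, adjusted p = 0.00589), the gene of a partner protein, mafgb, fell by 0.76 (SE 0.11, adjusted p = 0.000541) and keap1a, whose product marks that relative for degradation, fell by 0.59 (SE 0.11, adjusted p = 0.0023). The partner protein genes did not move together. While mafgb fell, maff rose by 0.37 (adjusted p = 0.0122) and mafk by 0.63 (adjusted p = 0.0259), and mafga differed by 0.061 (adjusted p = 0.803). The remaining gene that rose was bach1a, by 1.02 (adjusted p = 0.0183). The call of keap1a was lost with its dimmest probe and in the single fit of 12 arrays. At 36 hpf 0 of 9 passed by limma, against 6.37% of all genes, and 0 had an unadjusted p under 0.05. Without MO replicate 2, however, keap1a turned from -0.024 to 0.80 (adjusted p = 0.0419).

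Upstream of the proteasome, 3 of 13 ubiquitin genes tested rose (24.3% of all genes) and 1 fell (24%) at 24 hpf. The shuttle factor gene rad23b rose by 1.00 (SE 0.15, adjusted p = 0.000793), zfand5a, whose product binds ubiquitin and the proteasome, rose by 0.94 (SE 0.087), and the polyubiquitin gene ubc by 0.34 (SE 0.0996, adjusted p = 0.0218). The call of ubc held in 16 of 23 alternatives. The gene of the main ubiquitin-activating enzyme, uba1, fell by 0.63 (SE 0.10, adjusted p = 0.00113), but its dimmest probe gave 0.080 (adjusted p = 0.742). At 36 hpf 0 of 13 passed by limma, against 6.37% of all genes, and 0 had an unadjusted p under 0.05.

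In the other route of degradation, through autophagy and the lysosome, 4 of 11 genes tested rose (24.3% of all genes) and 1 fell (24%) at 24 hpf. The lysosomal protease gene ctsc rose by 1.49 (SE 0.13) at 24 hpf and by 2.66 (SE 0.40, adjusted p = 0.015) at 36 hpf. Here too the study lists the gene as lower after the knockdown at 24 hpf. The dimmest probe of ctsc gave 3.15 at 24 hpf. The lysosomal membrane gene lamp2 rose by 0.97 (SE 0.095), or 1.81 by its dimmest probe, and map1lc3b and gabarapa, whose products coat the autophagosome, by 0.50 (SE 0.11, adjusted p = 0.00609) and 0.36 (SE 0.0815, adjusted p = 0.00613). The gene that fell was becn1, which starts autophagosome formation, by 0.28 (SE 0.10, adjusted p = 0.0466). The call of ctsc at 36 hpf was lost without MO replicate 3 or any 1 of the MP arrays, by the methods' t-test and with the positive control spots (1.48). It held without MO replicate 2, which had the highest value of the MO arrays at 36 hpf, 5.38 against 3.71 and 4.12. These lists count genes chosen for their roles, and nothing was tested about a list as a whole.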

How the data were processed

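Transcripts of 12 embryo pools were measured on one-color Agilent arrays, 3 arrays per group. Spot intensity was read by the authors in Feature Extraction (Agilent, version 10.5.1.1), and the deposited intensity used here is background-subtracted and spatially detrended but not scaled between arrays. The deposited scanner flags (well above background, outlier) were used as well. The authors' processed intensity table, scaled per chip to control genes, served as an alternative only. Its lowest value is 0.01.

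Intensity was floored at 0.05 and divided by the median of the 19114 probes above 50 on all 12 arrays, and log2 was taken. Outlier spots were left out and repeated spots averaged. Of 43603 probes 16770 were matched by accession to the RefSeq gene table of assembly GRCz12tu, used for names only, which gave 15771 probes of 10914 named genes, 3907 of them with several probes. The brightest probe stood for a gene. Genes entered a test if every array of 1 or more of the groups compared had the probe well above background.

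Groups were compared with limma 3.58.1 (lmFit, eBayes with trend) in R 4.3.3, fitted on the arrays of each comparison, with Benjamini-Hochberg adjustment over all genes tested. Scripts were tested on simulated data first. Figures were drawn with matplotlib 3.10.9. Alternatives were other scalings, normexp background correction (offset 50), filters, probes of a gene, blocks, the methods' t-test and leaving out each array. The limited number of arrays sets the precision. Pools came from separate breedings, and p-values measure the spread between these pools.

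Every subunit gene is named with its difference at both times. Values per array are given for the catalytic genes, for the highest and lowest gene of each class at each time, and for genes past the threshold at 36 hpf or in the interaction. Of each pathway list up to 4 genes with the smallest adjusted p at 24 hpf are named, and any past the threshold at 36 hpf. The genes psma6b, psma5, psmd14, psmd4a, psmc4, psmb10, becn1, maff, mafk, mafga and bach1a are described further after their values were seen. The members and lists were chosen with earlier results of these data known.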

Additional observations from a re-analysis of the deposited data

Results flagged for a closer look

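For 2 inducible genes of the pathway the difference between MO and MP was smaller at 36 hpf than at 24 hpf by the interaction test in limma over all 12 arrays. Of the 10388 genes tested 1.55% passed it. For psmb13a the difference fell by 2.70 on the log2 scale (SE 0.53, adjusted p = 0.0285), from 4.69 to 1.99. For the activator gene psme1 it fell by 1.96 (SE 0.35, adjusted p = 0.0186), from 3.61 to 1.65. In both genes the 3 MO arrays were above the 3 MP arrays at both times. At 36 hpf the probe of psmb13a was well above background on 2 of 3 MP arrays. The calls at 36 hpf held in 10 of 20 alternatives for psmb13a and 12 of 21 for psme1. How the interaction of these genes depends on the processing or on single arrays, MO replicate 2 at 36 hpf among them, was not examined. No standard subunit gene passed the interaction test.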

How the results depend on the processing

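At 24 hpf the count of 12 changed subunit genes was 6 and 5 under the methods' t-test on log2 and on linear values (37.7% and 35.2% of all genes), and 1 in a single fit of all 12 arrays (21.4%). Leaving out 1 array gave 7 to 11 (40.2 to 48.8%). The median difference of -0.061 was -0.15 when scaled to the positive controls, where all genes moved to -0.080, and -0.12 to 0.036 without 1 array, positive without MO replicate 2. At 36 hpf the count was 0 in every setting run, with 0.0202 to 19% of all genes changed. The median there was -1.23 with the positive control spots, with all genes at -1.15, and -0.20 to 0.16 without 1 array, the latter without MO replicate 2.

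For MP over time the count of 6 was 0 with the positive control spots (5.78% of all genes), 3 with the authors' table (28.4%), 0 in the single fit of 12 arrays (21.3%) and 1 to 4 without 1 array (17.3 to 30.3%). The median of -0.12 was -0.64 with the positive control spots (all genes -0.59) and -0.15 to -0.078 without 1 array. For MO over time the count of 2 was 36 with the positive control spots (88.3% of all genes), 1 with normexp (9.26%), 1 with the authors' table (10.6%), 0 by the t-test on log2 and linear values (5.5% and 4.47%), 5 in the single fit (25.1%) and 0 to 14 without 1 array (0.215 to 49.7%), with 14 without MO replicate 2 at 36 hpf. The median of -0.16 was -1.77 with the positive control spots (all genes -1.69) and -0.33 to 0.037 without 1 array. The interaction count was 0 in all settings but the one without MO replicate 2 at 36 hpf, which gave 3 (15.7% of all genes). The positive control spots were dim, as given above, and that scale moved the medians of all genes too. The cause of the shifts between settings was not tested.

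For MO and MP arrays of the same replicate number, deviations from the group mean correlated at -0.168, -0.052 and -0.017 at 24 hpf. At 36 hpf these values were 0.152, 0.084 and -0.257. Unlike numbers gave -0.233 to 0.192. These values show no pairing by number, but with 3 arrays per group they cannot exclude it. With the replicate number as a block the counts were 10 at 24 hpf (44.4% of all genes), 0 at 36 hpf (2.27%), 10 for MP over time (30.4%), 0 for MO over time (1.76%) and 0 for the interaction (1.04%). With the numbers of MP replicates 2 and 3 exchanged, an alternative chosen after seeing the data, the block gave 9 at 24 hpf (42.9%). By scan time MO replicates 2 and 3 and MP replicate 1 at 24 hpf formed session 1, and the other 24 hpf arrays session 2. Session thus partly followed treatment. With the session as a block the count at 24 hpf was 10 (43.9%). The calls of psma5, psmc4, psmd13 and psmd14 were lost, and psmc1a and psmd7 were called. With the slide as a block the count was 12 (47.2%).

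Reversed were uba1 at 24 hpf, 0.080 by its dimmest probe, and keap1a at 36 hpf, 0.80 without MO replicate 2 (-0.49 to 0.80 over the fits without 1 array). A slide block for the comparisons over time, a session block at 36 hpf and a t-test of the interaction were not run. The number of arrays, 3 per group, limits the precision.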
